A study of Sorghum bicolor with 14 samples.

Results

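Milky-stage and booting RNA levels were compared in the middle stem internode of sweet sorghum (Sorghum bicolor) variety ICSV12012, over loci that carry the name of a single gene and reach 1 FPKM in at least one of these stages. Of 34755 loci in the development table, 32752 are named, 31539 of these carry 1 gene name, and 16183 reach that level and were compared. FPKM are fragments scaled to transcript length and library size, and the authors gave 1 value per locus and stage for the 2 libraries of that stage. Both groups are the same variety and tissue without any treatment. The plants grew in a watered, nitrogen-fertilized soil bed, and the labels give no plant age or number of plants per library. They were sampled at booting, with the head still inside the flag leaf sheath, or at the milky stage, an early stage of grain filling. The table's other columns serve below as levels set beside these: floral initiation and soft dough from the same soil bed, and D1, D2 and D3 from pot-grown plants harvested at booting, after water was withheld from the flag leaf stage, at a soil moisture of about 13%, 7% and 2%. With a single value per stage there is no spread between libraries, so the differences below are descriptions without error or test. The depth of sequencing is unknown, since read totals cannot be recovered from FPKM.

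The sorghum stem is built of internodes that lengthen one after another until the head has emerged. An internode that has stopped lengthening thickens and lignifies its cell walls, and in sweet sorghum its storage parenchyma loads sucrose into the vacuole. After flowering the filling grain draws sugar and nitrogen from stem and leaves. A bulk internode sample pools epidermis, vascular bundles and storage parenchyma, so fewer cells of a type and less RNA per cell cannot be told apart. Loci are identified by sorghum gene identifiers and, where they overlap one, by the gene symbol and gene type (protein-coding, long non-coding RNA or pseudogene) of the RefSeq table of the assembly Sorghum_bicolor_NCBIv3. Of the loci compared, 15741 (97.3%) could be linked in this way. Differently named loci listed at the same interval received the same symbol and gene type, so the counts by gene type below include them. Product names were not used here, so the roles of single loci are not stated, and the internode could not be checked against marker genes.

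More loci were lower than higher at the milky stage. Differences are given as milky stage minus booting on the log2(FPKM + 1) scale, on which a value of 1 is 2-fold, and the offset makes those of weakly expressed loci smaller than their FPKM ratio. At least 2-fold higher were 1590 loci (9.83%) and at least 2-fold lower were 2701 (16.7%), together 26.5% of the loci compared. At 4-fold the numbers were 281 higher and 817 lower. The middle of the distribution lay close to 0, with a median difference of -0.02 and quartiles of -0.66 and 0.52. The lower tail was the longer one, as the 5th percentile was -2.01 and the 95th 1.36. Higher loci made up 37.1% of the differing loci in the deposited scaling and 48.0% after quantile normalization (2028 higher and 2196 lower), which moved the median of all loci from -0.02 to 0.09. The excess of lower loci held in every class of level. Among loci whose higher value lay between 1 and 2 FPKM, 12.9% were lower and 3.52% higher. Between 20 and 50 FPKM the shares came closest, with 14.8% lower and 12.3% higher. Among the 1647 loci at 100 FPKM or more they were 20.04% and 10.9%.

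**Figure D1:**
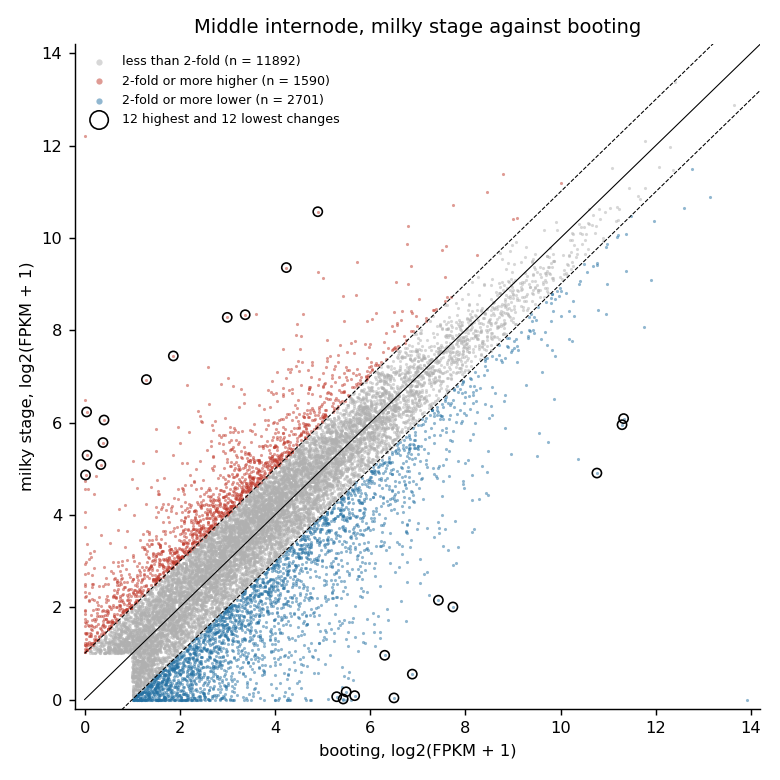
Each dot is 1 of the 16183 loci, with its level at booting on the x axis and at the milky stage on the y axis, both as log2(FPKM + 1). Dashed lines mark 2-fold; 1590 loci lie on or above the upper line and 2701 on or below the lower one, and circles mark the 12 highest and 12 lowest differences among loci not listed at 0.

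Loci listed at 0 in either stage are left out of the order of differences here and treated further below. Of the 12 loci with the highest differences, 10 were below the median booting level of all loci compared (9.92 FPKM) and 2 above it, at 17.9 and 28.8 FPKM. First in this order was Sobic.002G322200 (RefSeq LOC110432827, a long non-coding RNA, chromosome 2, 69355902 to 69364093, coordinates as the file gives them). It stood at 1.68 FPKM at floral initiation, 0.0293 at booting, 74.1 at the milky stage and 16.3 at soft dough, and at 0.105, 2.64 and 5.39 in D1, D2 and D3, a difference of 6.19. Sobic.009G245000 (LOC8083808, protein-coding, chromosome 9, 58073717 to 58079719) was the most abundant of these loci. Its levels were 3.26, 28.8, 1516 and 588 FPKM over the 4 stages in the same order and 28.5, 120 and 24.6 in the drought groups, so that the milky stage was 52.6 times above booting. In these 2 loci the milky stage was the highest of the 7 groups and soft dough the second.

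The next 10 in this order, 4.75 to 5.65, are named here after their values were seen, and their levels in the other groups followed several courses. Sobic.002G116000 (LOC8057926) was at 6.98 FPKM at booting and 310 at the milky stage, against 0.0587 at floral initiation and 26.9 at soft dough. Sobic.009G244900 (LOC8064726) was at 9.37 and 322 FPKM at the 2 stages and back at 8.72 at soft dough. Both were thus high in 1 stage of 4. In Sobic.001G418600 (LOC8084921) the level went from 0.327 FPKM at booting to 65.5 at the milky stage and 89.1 at soft dough, and the pot-grown booting plants were at 4.37, 24.9 and 33.0 from D1 to D3. A different course was seen in Sobic.004G293500 (LOC110434966), which was at 122 FPKM at floral initiation, 2.64 at booting, 173 at the milky stage and 52.1 at soft dough, and at 7.58, 6.66 and 11.9 in D1, D2 and D3. Here the milky stage was the highest and booting the lowest of the 7 groups. Sobic.010G024300 (LOC8069077) was at 15.5 FPKM at floral initiation, 0.0362 at booting, 38.2 at the milky stage and 33.1 at soft dough, and at 26.5, 23.9 and 0.0108 in D1, D2 and D3. Its level thus varied by a similar width among the groups harvested at booting. The other 5 of the 10 were Sobic.009G076700, Sobic.001G096800, Sobic.002G322000, Sobic.009G107020 and Sobic.001G258300, at 0.0134 to 17.9 FPKM at booting and 28.1 to 655 at the milky stage. Over all 12 loci the median level was 2.47 FPKM at floral initiation, 0.893 at booting, 97.5 at the milky stage and 30.0 at soft dough, and soft dough was above booting in 11 of them. The exception was Sobic.009G244900. In the drought groups their medians were 1.68 (D1), 5.95 (D2) and 4.13 (D3) FPKM.

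Among the lowest differences, again without loci listed at 0, Sobic.004G128400 (LOC8080412, protein-coding, chromosome 4, 16208595 to 16210069) came first. It stood at 53.0 FPKM at floral initiation, 89.5 at booting, 0.0250 at the milky stage and 33.1 at soft dough, and at 1.56, 2.21 and 0.0463 in D1, D2 and D3, a difference of -6.46. The milky stage was an isolated low stage in the soil bed, and all 3 pot-grown groups were below the other soil-bed stages too. Sobic.003G217632 (LOC8054372, protein-coding, chromosome 3, 55308083 to 55311807) was at 61.5, 117, 0.465 and 0.150 FPKM over the 4 stages and at 1.35, 3.63 and 16.2 in the drought groups, a difference of -6.33. This locus was low at both stages of grain filling.

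The further 10 lowest differences, -5.23 to -5.86, were again named after their values were seen, and 4 of them stood at 212 FPKM or more at booting. Sobic.003G013600 (LOC8079482) was at 576 FPKM at floral initiation, 2564 at booting, 66.9 at the milky stage and 288 at soft dough, and at 1638, 1799 and 2070 in D1, D2 and D3. Sobic.001G191200 (LOC110433518) was at 3086, 2506, 61.0 and 561 FPKM over the stages and at 3168, 2221 and 2825 in the drought groups. In these 2 loci the 4 groups harvested at booting stood between 1638 and 3168 FPKM and the milky stage was the lowest of the 7 groups. Sobic.002G034800 (LOC110432959) was at 308, 1738, 29.0 and 173 FPKM over the stages. Sobic.006G169400, which has no RefSeq gene linked to it and spans 455 bases, was at 105, 212, 3.02 and 33.8 FPKM. These 4 loci share a partial return at soft dough, above the milky stage and below booting. The drought groups told 2 further loci apart from each other. Sobic.009G116700 (LOC8077913) was at 78.1 FPKM at booting against 0.944 at the milky stage, and went from 18.8 in D1 to 308 in D2 and 1342 in D3. Sobic.004G161800 (LOC8059610) was at 59.3 FPKM at floral initiation, 42.2 at booting and 0.00834 at the milky stage, is listed at 0 at soft dough, and stayed between 0.0672 and 0.0897 FPKM in the drought groups. The remaining 4 were Sobic.001G161500, Sobic.002G051400, Sobic.001G465100 and Sobic.002G343600, at 38.3 to 172 FPKM at booting and 0.0437 to 3.44 at the milky stage. Over all 12 loci the median went from 60.4 FPKM at floral initiation to 103 at booting, 0.704 at the milky stage and 10.4 at soft dough, and 0 of the 12 were above their booting level at soft dough.

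**Figure D2:**
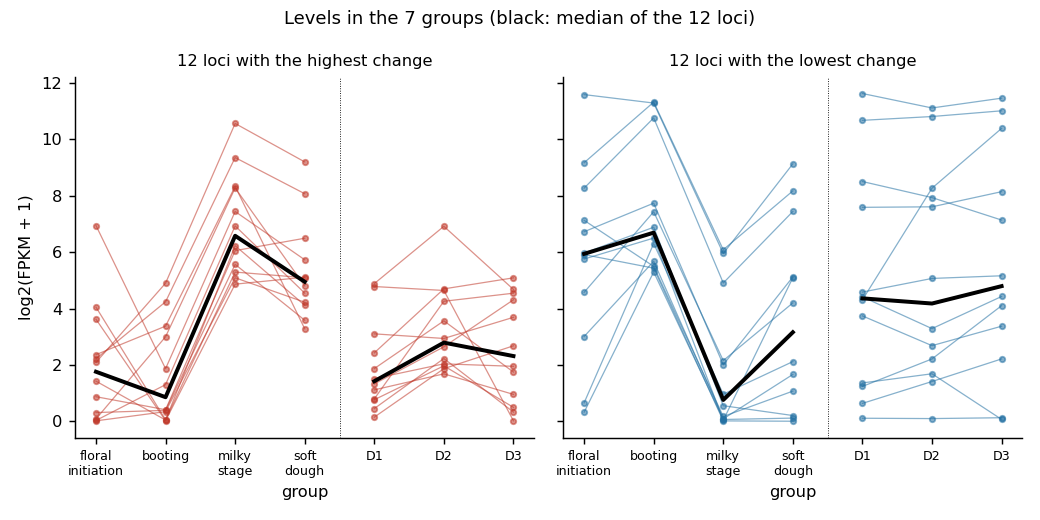
Levels as log2(FPKM + 1) in the 4 soil-bed stages and the 3 drought groups, 1 thin line per locus, for the 12 highest (left) and the 12 lowest (right) differences between milky stage and booting, with the median in black. The left median is highest at the milky stage (97.5 FPKM) and the right median is lowest there (0.704 FPKM).

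The most abundant loci of the booting internode were mostly lower at the milky stage. Of the 100 with the highest FPKM at booting, 38 differed at least 2-fold toward lower values and 1 toward higher ones, with a median difference of -0.83. Ranked at the milky stage instead, 11 of the top 100 were lower and 14 higher, and the median was -0.32. A ranking at one of the compared stages favours loci that are high there, which is why both are given. The 10 most abundant loci held 9.21% of the summed FPKM at booting but 6.92% at the milky stage, and the top 100 held 28.1% and 22.2%. Each of these lists includes 1 locus listed at 0 in the other stage, Sobic.002G324200 at booting and Sobic.001G141300 at the milky stage. Such a 0 may be a failed estimate, and the shares without these loci were not computed. The sum over the loci compared was 809498 FPKM at booting and 660732 at the milky stage, which is no measure of depth. Sobic.008G185900 (LOC8071524) was at 11577, 8990, 1901 and 5436 FPKM over the 4 stages. Sobic.010G101200 (LOC8061496) was at 5528, 6180, 1604 and 2219 FPKM. Sobic.008G049200 (LOC110429605) was at 716 FPKM at floral initiation, 3470 at booting, 270 at the milky stage and 380 at soft dough, 12.9 times lower at the milky stage than at booting. In these 3 loci the milky stage was the lowest of the 4 stages. In the other direction Sobic.001G084100 (LOC110436990) was at 212, 442, 2675 and 534 FPKM over the stages and between 80.0 and 109 in the drought groups, which made the milky stage 6.05 times above booting and the highest of the 7 groups.

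Some loci are listed at exactly 0 in one of the stages, and such a 0 may be a failed estimate. The 2 clearest cases are among the most abundant loci of the whole table. Sobic.002G324200 (LOC110432939) is listed at 15565 FPKM at booting, 4397 at floral initiation and 0 at the milky stage, soft dough and D3. Sobic.001G141300 (LOC110435783) is listed at 0 at booting, with 4737 FPKM at the milky stage, 16363 at floral initiation and 14043 at soft dough. No fold is given for them. In all, booting has 20 of the compared loci listed at 0, the milky stage 119. A level below 0.1 FPKM at booting with 10 FPKM or more at the milky stage was found for 10 loci, of which 7 are long non-coding RNAs in RefSeq and 3 protein-coding. Of these 10, 5 are listed at exactly 0 at booting, 4 of them long non-coding. Long non-coding RNAs make up 3.24% of all loci compared, but they were more often below 0.1 FPKM at booting (3.63%) than protein-coding loci (0.247%). Of the 68 compared loci below 0.1 FPKM at booting, 19 are long non-coding and 37 protein-coding. All of these passed the filter only through the milky stage. The reverse, 10 FPKM or more at booting and below 0.1 at the milky stage, was found for 30 loci, of which 24 are protein-coding and 2 long non-coding, and 16 are listed at exactly 0. Of the 301 compared loci below 0.1 FPKM at the milky stage, 25 are long non-coding and 234 protein-coding. These are 4.77% of the long non-coding and 1.56% of the protein-coding loci, and they passed the filter only through booting.

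Long non-coding RNAs are transcripts with no annotated protein. Among the 524 compared loci linked to one, 18.1% were at least 2-fold higher at the milky stage and 14.1% lower, with a median difference of 0.20. For the 15005 protein-coding loci these values were 9.39%, 16.2% and -0.02. The medians depended on the setting, with 0.11 for the long non-coding loci at an offset of 5, and 0.32 for them and 0.08 for the protein-coding loci after quantile normalization. The level of 10 FPKM was reached by 163 of the long non-coding loci at booting and by 197 at the milky stage, against 137 at floral initiation, 166 at soft dough and 160 to 169 in the drought groups. The drought groups were measured on 513 of the 524. Loci entered through their booting or milky stage level, which can favour these 2 stages over the other groups. Of the protein-coding loci, 7707 reached 10 FPKM at booting and 7662 at the milky stage, against 8049 at floral initiation and 7787 at soft dough. Besides those named above, Sobic.010G240100 (LOC110431207) was at 20.2 FPKM at floral initiation, 0.0428 at booting, 22.7 at the milky stage and 28.0 at soft dough. It stood at 37.2, 18.7 and 19.4 FPKM in D1, D2 and D3, so booting in the soil bed was the 1 low group of 7. In the other direction Sobic.003G115550 (LOC110433454) was at 5.60 FPKM at floral initiation, 19.6 at booting, 0.0829 at the milky stage, and is listed at 0 at soft dough. Sobic.009G106300 (LOC110430360) was at 5.00, 18.6, 0.182 and 0.173 FPKM over the stages, with 14.5, 14.3 and 7.71 in the drought groups. The sources used here do not say whether fragments were counted by strand, so a non-coding locus and an overlapping gene on the other strand cannot be told apart.

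The difference between the stages moved with locus span, the distance from the start to the end of a locus, introns included. Some differently named loci are listed at the same interval, such as Sobic.001G000700 and Sobic.001G000800 (both 15526 bases). For these the span is not that of a single gene, and how many there are was not counted. All compared loci were divided by span into 5 classes of equal size. In the shortest class, 111 to 2400 bases, 37.0% of loci were lower at the milky stage by 2-fold or more and 8.25% were higher, with a median difference of -0.64. In the longest class, from 7432 bases, 7.79% were lower and 13.5% higher, with a median of 0.34. The 3 classes between had medians of -0.17, 0.01 and 0.16 in order of span, so the medians followed the order of span without exception. Lower loci had a median span of 2729 bases and higher loci one of 4902, and 44.4% of the lower loci belong to the shortest class. Spearman's rho of difference with span was 0.31 across the loci compared, which are not independent replicates. For 2 comparisons that share no library with this one it was 0.08 (soft dough minus floral initiation) and 0.01 (D3 minus D1). In the shortest class the median level was 8.21 FPKM at booting, 7.16 at floral initiation, 4.52 at the milky stage, 5.05 at soft dough and 5.84 to 6.01 in the drought groups. In the longest class it was 7.82 FPKM at booting, against 10.3 at floral initiation, 10.02 at the milky stage, 10.3 at soft dough and 10.97 to 11.2 in the drought groups. Booting was thus the highest of the 7 groups for short loci and the lowest for long ones, and the milky stage the lowest for short ones. Loci entered through their booting or milky stage level, 1499 of them at 1 FPKM only at booting and 745 only at the milky stage. This can raise the medians of these 2 stages, booting most, against the other 5 groups. With the median of 20 finer span classes removed, 1710 loci were higher and 2204 lower, and 1250 (78.6%) of the higher and 1936 (71.7%) of the lower loci were again at least 2-fold.

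**Figure D3:**
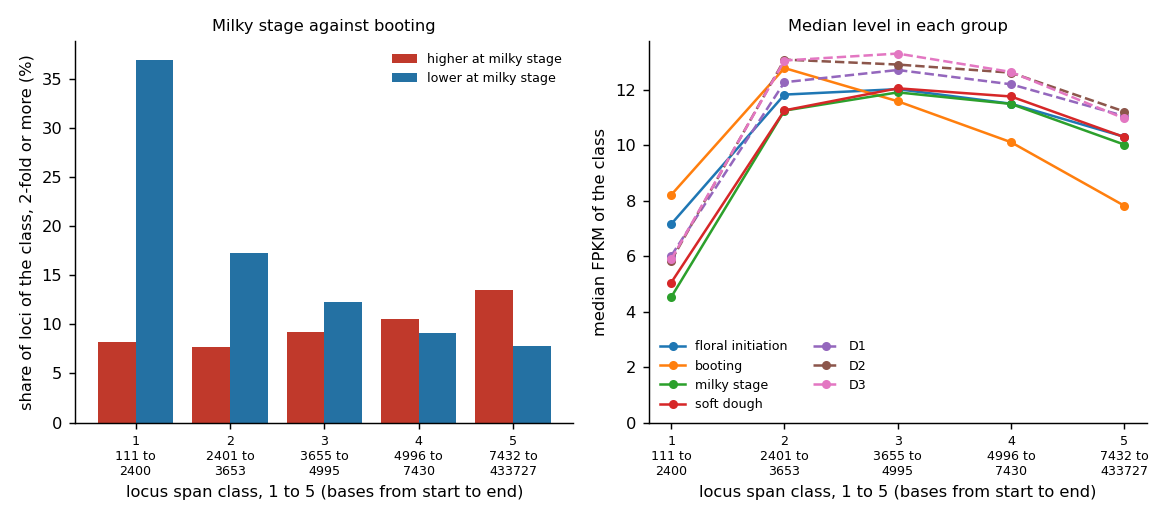
Left, share of loci in each of 5 classes of locus span that were at least 2-fold higher (red) or lower (blue) at the milky stage than at booting, from 37.0% lower in the shortest class to 7.79% in the longest. Right, median FPKM of each class in each of the 7 groups, where booting is highest in the shortest class (8.21 FPKM) and lowest in the longest (7.82 FPKM). Loci entered through their booting or milky stage level, which can favour these 2 columns.

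Gene types were also compared within span classes. In the shortest class 38.1% of 2736 protein-coding loci and 19.0% of 137 long non-coding loci were lower at the milky stage, with medians of -0.68 and 0.03, and 7.42% and 14.6% were higher. In the longest class 13.2% of the protein-coding and 20.2% of the 99 long non-coding loci were higher, and 7.56% and 13.1% lower. The median of the non-coding loci was the higher one in the 3 shortest classes. In the next longer class (0.15 and 0.14) and the longest (0.34 and 0.21) it was the lower one.

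Most differing loci had no neighbour with the same direction. The share whose next locus had the same direction was slightly above the background. The next compared locus was also lower for 20.4% of the lower loci, against 16.7% of all placed loci that were lower, and also higher for 13.3% of the higher loci, against 9.81%. These shares and the runs below count loci listed at the same interval as neighbours, such as the lower loci Sobic.010G036700 and Sobic.010G036601. Such pairs were not left out. Of the lower loci 1719 and of the higher ones 1200 stood alone. Uninterrupted runs of 4 or more numbered 21 for lower loci and 4 for higher ones. With 16.7% of loci lower and 9.81% higher, runs arise from these shares alone, and more of them for lower loci. The number expected in this way was not computed. The longest held 9 lower loci in 71574 bases of chromosome 2 (66495039 to 66566613), from Sobic.002G284200 to Sobic.002G285700, with a median difference of -3.65. At booting they stood at 2.85 to 24.1 FPKM and at the milky stage at 0 to 6.57, with 3 of them listed at 0 there. Sobic.002G284901 (LOC8055001) was at 0.0753 FPKM at floral initiation, 22.5 at booting, 0.197 at the milky stage and 0.273 at soft dough, and at 1.505, 0.197 and 3.53 in D1, D2 and D3. For this locus booting in the soil bed was the 1 high group. Sobic.002G284800 (LOC8055000) was at 8.94, 18.7, 0.571 and 1.35 FPKM over the stages. Only the first locus of the run, Sobic.002G284200 (LOC8054996), was back at its booting level of 14.5 FPKM at soft dough (16.2). The last 3 loci of the run overlap a single RefSeq gene, LOC110432825, and may share fragments, which FPKM do not allow to be told apart. With an offset of 5 in place of 1, 4 of the 9 no longer reached 2-fold. Of the 9, 7 belong to the shortest span class, and with the span trend removed Sobic.002G284701 no longer reached 2-fold (-0.84), which breaks the run.

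**Figure D4:**
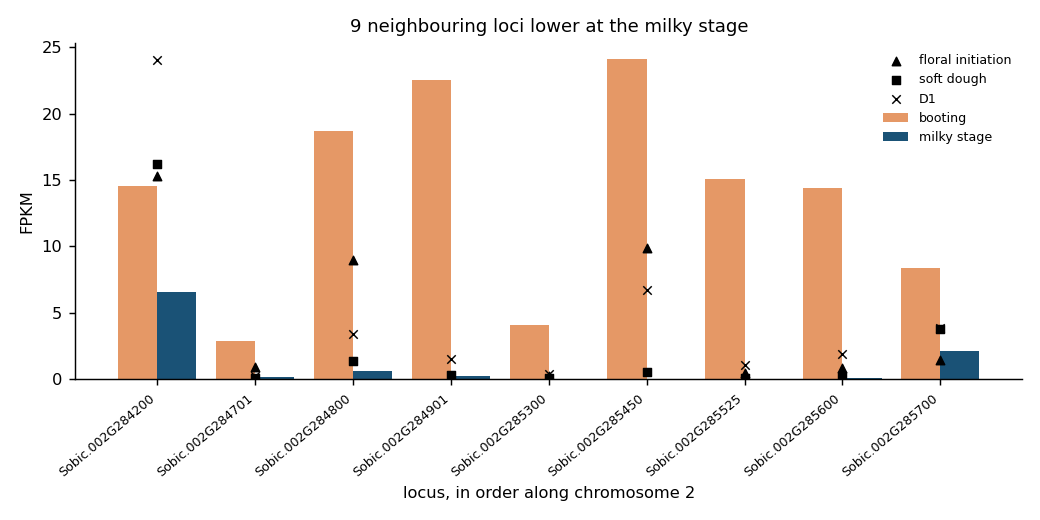
FPKM of the 9 neighbouring loci of chromosome 2 in their order along the chromosome, with bars for booting and the milky stage and points for floral initiation, soft dough and D1. Booting bars reach 2.85 to 24.1 FPKM and milky stage bars 0 to 6.57.

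On chromosome 7 a pair of runs of 4 higher loci lay close together (5140759 to 5208674 and 5247017 to 5310457). They held Sobic.007G050600 (LOC8069637), at 42.9, 9.17, 97.8 and 16.6 FPKM over the 4 stages, and Sobic.007G051800 (LOC8069641), at 407, 51.8, 707 and 563 FPKM. Both were lower at booting than at the stages before and after. Of the other members, Sobic.007G051700 (LOC8080859) was at 35.5 FPKM at booting and 124 at the milky stage. Sobic.007G051300 (LOC8080857) was at 2.15 and 8.24 FPKM. The remaining members were weakly expressed. Sobic.007G050700 went from 0.0357 FPKM at booting to 1.10 at the milky stage, and Sobic.007G050750 from 0 to 2.04. Sobic.007G051501 went from 0.148 to 3.45 FPKM and Sobic.007G052000 from 0.415 to 2.67. The loci of these runs were not followed with other offsets. The most strongly differing loci include neighbours as well. Sobic.009G244900 and Sobic.009G245000 lie next to each other on chromosome 9, and Sobic.002G322000 (LOC8080141), at 3.65, 17.9, 655 and 268 FPKM over the stages, lies close to Sobic.002G322200 on chromosome 2. Across chromosomes the share of lower loci ranged from 15.2% (chromosome 9) to 18.9% (chromosome 5), and the share of higher loci from 7.47% (chromosome 8) to 11.7% (chromosome 9).

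The columns that did not choose these loci show where the 2 stages stand. The 1590 higher loci had a median of 5.47 FPKM at booting and 17.9 at the milky stage. Their median at floral initiation was 7.87 FPKM and at soft dough 10.6, and in the drought groups, all harvested at booting, it was 5.62, 6.72 and 6.70. The 2701 lower loci had medians of 12.2 FPKM at booting and 2.38 at the milky stage, with 9.89 at floral initiation, 5.05 at soft dough and 10.8, 10.3 and 9.76 in the drought groups. For both sets the drought groups' medians lay nearer to the booting than to the milky stage median. The same held for floral initiation (7.87 and 9.89 FPKM), so this nearness is not particular to groups harvested at booting. Soft dough was on the FPKM scale nearer to booting for the higher loci (10.6) and nearer to the milky stage for the lower ones (5.05). For the higher loci all other groups thus lay nearer to booting, and these loci were chosen for being high at the milky stage. Development stages and drought groups were quantified separately, and pot growth and drought cannot be told apart. Of the higher loci 1565, and of the lower loci 2633, are named in the drought table.

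**Figure D5:**
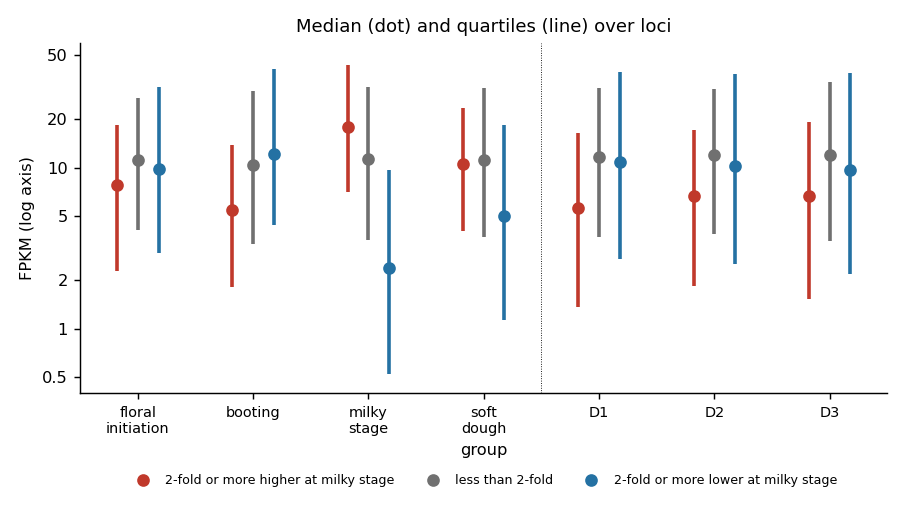
Median (dot) and quartiles (line) of FPKM on a log axis in the 7 groups, for loci at least 2-fold higher (red), at least 2-fold lower (blue) or within 2-fold (grey) at the milky stage against booting, a choice that fixes the order in those 2 columns. In D1 to D3 the red medians lie at 5.62 to 6.72 FPKM and the blue ones at 9.76 to 10.8.

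Soft dough against floral initiation uses neither the booting nor the milky stage libraries. Here 29.3% of the compared loci passed 2-fold, with 14.1% higher and 15.3% lower at soft dough. Of the loci higher at the milky stage, 28.1% were higher at soft dough than at floral initiation and 9.56% lower, and of those lower at the milky stage, 37.4% were lower and 8.40% higher. Over the 5 span classes the first of these shares ran from 21.5% to 38.7%, against 11.2% to 16.8% of all loci in the same classes. The share lower at soft dough among loci lower at the milky stage ran from 34.2% to 40.7%, against 8.81% to 27.1% of all loci. For the lower loci both shares came nearest in the shortest class, with 37.6% against 27.1%. In D3 against D1, where 9.19% of all loci passed 2-fold (4.94% higher, 4.25% lower), the loci higher at the milky stage were higher in 9.90% and lower in 3.90%. Those lower at the milky stage were lower in 10.9% and higher in 8.39%, so that they differed more often than all loci in both directions.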

How the data were processed

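Per the labels' protocols a stranded kit was used on total RNA. The deposited values are FPKM, which the authors gave per locus and group, with development stages and drought groups in separate tables. The sources used here do not give how 2 libraries became 1 value, nor the genome build and annotation. The submitters' processing notes name HISAT2 2.0.5, Bowtie2 2.2.9, cutadapt 1.8.1 and Cuffdiff. Each label's stage or condition set the group, and 0 value columns belong to other samples. Whether starts count from 0 or 1 is not stated in the file.

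Differences of log2(FPKM + 1) were computed with Python 3.11.15, numpy 2.4.6 and pandas 2.3.3 and counted from 1 upward, with no test, since there is no spread between libraries. The counting step was tested on simulated data with 200 altered loci. Loci were linked to the RefSeq gene of longest overlap, kept where the overlap was at least 50% of either one. Only coordinates were used, so loci listed at the same interval share a link, such as Sobic.001G300600 and Sobic.001G300700 (LOC110429705). The link rests on matching coordinates (median distance of starts 46 bases). Loci named by rule are the 2 highest and 2 lowest differences among loci at 10 FPKM or more in the higher stage and not listed at 0. With product names the rule would have taken 12 in each direction and formed gene lists, including markers of other tissues, which could not be done. The members, lists and rules were chosen with earlier results of these data known. Alternatives were offsets of 0.1 and 5, minimums of 0 and 5 FPKM, median-of-ratios and quantile scaling, removal of the span trend, loci listed at 0 left out, a 4-fold threshold and, chosen after seeing the data, loci of several genes included.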

Additional observations from a re-analysis of the deposited data

How the results depend on the processing

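The numbers of loci at least 2-fold different (4291, of which 1590 higher and 2701 lower) stayed within 1.5 times except for 2 settings. An offset of 5 gave 2153 loci, 774 higher and 1379 lower, and a 4-fold threshold gave 1098, 281 higher and 817 lower. Lower loci were the more frequent in all settings run. For the 45 loci followed, 387 of the recomputed differences kept their direction and their side of 2-fold. Of the rest, 7 no longer reached 2-fold, 2 newly reached it, 1 became 0 and 1 changed direction. Settings that only change which loci are compared leave the difference of a single locus as it was, so their part of the 387 was fixed beforehand. Many of these loci were also chosen for their large differences. The difference of Sobic.004G006300 (-0.76) became exactly 0 with quantile normalization. The difference of Sobic.005G228700 (-0.90) turned to 0.031 with the span trend removed, and the cause was not tested. Sobic.003G071901 (-1.25) no longer reached 2-fold with quantile normalization (-0.52) or without the span trend (-0.69). The median of the shortest span class ran from -0.79 (offset 0.1) to -0.34 (offset 5), apart from the span removal, which sets it to 0 by construction. No paired analysis was possible because the file holds 1 value per stage for both libraries, and for the same reason no library could be left out. Medians of gene lists by product name were not run. Depth is unknown.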

Other observations

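Loci outside the rule behaved as follows between the stages. Of 969 unnamed loci at 1 FPKM or more in either stage, 190 (19.6%) were at least 2-fold higher at the milky stage and 178 (18.4%) lower, with a median difference of 0.09 and a median span of 2642 bases. Of those up to the median span 17.5% were higher and 23.5% lower, and of the longer ones 21.7% and 13.2%. Of 1115 loci that join several genes, 112 (10.04%) were higher and 177 (15.9%) lower, with a median of -0.04. The 442 named loci with no RefSeq gene linked were lower in 31.0% and higher in 14.03%, and their median span was 1484 bases. The 194 loci linked to pseudogenes were lower in 23.2% and higher in 10.3%.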
